A study of Mus musculus with 39 samples.

Results

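The RNAs described here encode the machinery that brings proteins into mitochondria and folds, trims or degrades them once inside. They were chosen by gene symbol: 14 genes whose symbols start with Timm, 9 that start with Tomm, and 17 named singly (Samm50, Mtx1, Mtx2, Pmpca, Pmpcb, Hspd1, Hspe1, Hspa9, Grpel1, Dnajc19, Pam16, Chchd4, Gfer, Oxa1l, Trap1, Lonp1 and Clpp). All 40 are among the 13230 genes present in the tables of both gradients. Beyond that presence the rule used symbols and no measured value, but earlier results of these data were known when the genes were chosen. The libraries are RNA-Seq of fractions from sucrose gradients (10 to 50% sucrose) loaded with liver homogenate, made without detergent and cleared of nuclei. The animals were wild-type female mice of the FVB strain, 1 per gradient. There was no treatment and no mutant. The age of the mice is not given in the sources used here. Gradient 1 has 17 libraries (fractions 4 to 19 and 21), gradient 2 has 22 (fractions 3 to 24), and a higher fraction number is denser. Fractions 4 to 7 are called the light zone below, fractions 10 to 13 the middle zone and fractions 16 to 19 the dense zone.

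Most mitochondrial proteins are made by cytosolic ribosomes and imported. Nearly all of them enter through the TOM complex of the outer membrane, whose receptors read targeting signals and whose channel is Tomm40. Precursors then part ways: beta-barrel proteins go to the SAM complex, small cysteine-rich proteins are trapped by oxidation in the intermembrane space, carriers are escorted by the small TIM chaperones to TIM22, and proteins with a presequence pass TIM23 and are pulled in by a motor built on mitochondrial Hsp70. In the matrix the presequence is cut off by the processing peptidase, and Hsp60, Hsp90-like and Lon or ClpP proteins fold or degrade the product. Hepatocytes are rich in mitochondria, and several mRNAs of mitochondrial proteins are known to be translated close to the organelle.

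The values are TPM, an RNA's estimated share of all transcripts in its library, scaled to the same total in each. A rise of the share cannot be told apart from a loss of other RNAs, and in bulk tissue fewer cells of a type and less RNA per cell cannot be told apart either. Depth cannot be read from TPM, so errors below rest on the spread between the 2 gradients. The fit pools this spread over the 3 zones and draws it toward that of other genes of like level. In each library the top 50 genes held 27.1% to 50.9% of TPM in gradient 1 and 28.3% to 52.4% in gradient 2, and none of the 40 genes was among the 50 left out for rescaling below. All 6 hepatocyte markers were above 0 in all 39 libraries, with a summed median of 34390 TPM in the light zone, 12330 in the middle zone and 16523 in the dense zone. The sums for Kupffer cells (5 of 5 markers found) went over the same zones from a median of 150 TPM to 48.8 and 46.7, and those for endothelial cells (4 of 4) from 19.7 to 7.32 and 5.98. Stellate markers (4 of 4) went from 43.5 to 17.9 and 15.1, cholangiocyte markers (2 of 3) from 3.21 to 2.67 and 3.75, and red cell markers (2 of 3) from 348 to 232 and 81.7. These sums show in which zones the marker RNAs lay, and their part in the results below was not tested. Together the 40 RNAs made up 0.281% of all TPM in the light zone of gradient 1 and 0.311% in gradient 2. The share was 0.557% and 0.605% in the middle zone, and 0.517% and 0.512% in the dense zone.

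RNAs of the same pathway were spread over nearly the whole gradient, and most peaked at nearly the same place in both mice. Only 3 of the 40, Tomm20, Tomm40l and Oxa1l, had their highest TPM within fractions 4 to 7 in each gradient, which is 7.5% of the genes, while 42% of 11643 genes did so in gradient 1 and 39.7% in gradient 2. The peaks of 15 of the RNAs (37.5%) in gradient 1 and 13 (32.5%) in gradient 2 fell in fractions 8 and 9, where 13.5% and 17.3% of all genes peaked. The peak fraction was the same in both gradients for 15 RNAs and within 1 fraction for 31. It was more than 2 fractions apart for 5, namely Tomm40 (fractions 18 and 14), Timm44 (18 and 15), Hspd1 (16 and 19), Lonp1 (17 and 21) and Trap1 (17 and 21). Pearson's R between the profiles of a gene in the 2 gradients, over the 17 fractions that both have, had a median of 0.965 for the 40 RNAs (lowest 0.758 for Timm44, highest 0.992 for Timm8b) and of 0.900 for all genes. Fractions next to each other are not independent, so these R values are descriptions with no test.

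The center of sedimentation, the mean fraction number weighted by TPM over the 17 shared fractions, summarises a profile in 1 value. Its median over the 40 RNAs was 11.7 in both gradients, and its median over all genes was 11.3 in both. The lightest center was that of Tomm20 (7.85 in gradient 1 and 8.44 in gradient 2) and the densest that of Trap1 (15.3 in both). Between these, RNAs of the small TOM subunits and of Timm8a1 and Timm8b came first. Then followed Timm23, Timm13 and Mtx2, then Timm17a, Hspe1, Grpel1 and Timm10. Tomm40, Samm50 and the processing peptidase came next, and Hspa9, Lonp1 and Trap1 were last.

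**Figure D1:**
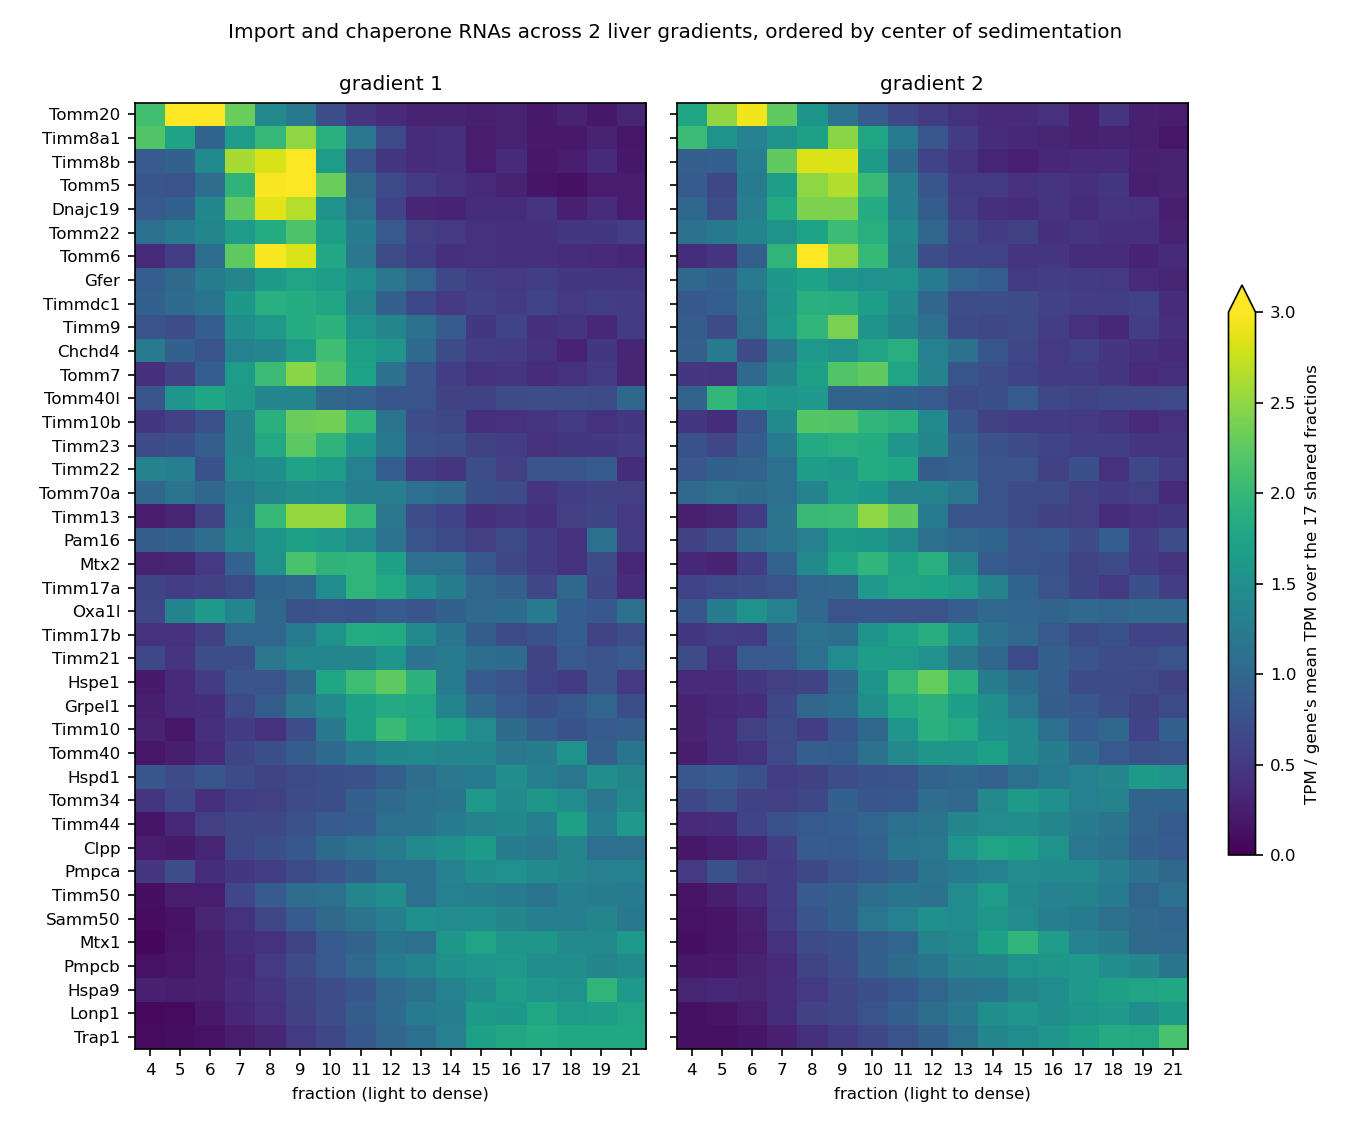
Relative TPM (TPM divided by the gene's mean over the 17 shared fractions, color, values above 3 drawn as 3) of the 40 RNAs in rows, against fraction number, for gradient 1 on the left and gradient 2 on the right. Rows run from the lightest center of sedimentation (Tomm20, 7.85 and 8.44) to the densest (Trap1, 15.3 in both), and the order from light to dense is alike in both gradients.

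To compare zones gene by gene, log2(TPM + 1) was averaged over the 4 fractions of a zone in each gradient. All 3 zones entered 1 limma fit with n = 2 gradients each, and p-values were adjusted by Benjamini-Hochberg over the 11652 genes whose mean TPM reached 1, which include all 40. A gene is called where the adjusted p was under 0.05, and every difference below is a difference of these log2 zone means, which understates the change of low genes. From the light to the middle zone 21 of the 40 RNAs were higher (52.5%, against 23.7% of all genes tested) and 3 were lower (7.5%, against 23.5%). The median difference was 0.88 for the 40 and 0.06 for all genes. With the gradient as a replicate block, which compares zones within each mouse, 26 were higher (all genes 37.5%) and 5 lower (all genes 34.4%). From the light to the dense zone 15 were higher (37.5%, against 22.4% of all genes) and 15 lower (37.5%, against 39.0%), with a median difference of 0.09, against −0.41 for all genes. This median was 0.19 in gradient 1 and −0.03 in gradient 2, and 0.18 after quantile normalization, so it has no stable sign. With the replicate block 18 were higher (all genes 30.8%) and 18 lower (all genes 49.5%). From the middle to the dense zone 2 were higher (5%, against 4.85%) and 21 lower (52.5%, against 22.7%), with a median difference of −0.91, against −0.28. With the replicate block 8 were higher (all genes 14.3%) and 26 lower (all genes 39.5%) in this last comparison. After quantile normalization of the libraries 5 were higher (all genes 10.4%) and 14 lower (all genes 13.8%). After rescaling without the 50 most abundant genes 5 were higher (all genes 7.01%) and 20 lower (all genes 20.7%). Quantile normalization moved the median of all genes from −0.41 to −0.04 for the dense against the light zone and from −0.28 to 0.04 for the dense against the middle zone. Relative to the median of all genes, the 40 RNAs stood at 0.82, 0.50 and −0.63 in the 3 comparisons, at 0.62, 0.22 and −0.63 after quantile normalization, and at 0.55, 0.24 and −0.69 among the 7094 genes with a mean of 10 TPM or more. Of those 7094 genes 2491 were called higher and 1383 lower in the middle than in the light zone. None of the 77 differences called for these genes changed sign under any of the 7 alternative fits.

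**Figure D2:**
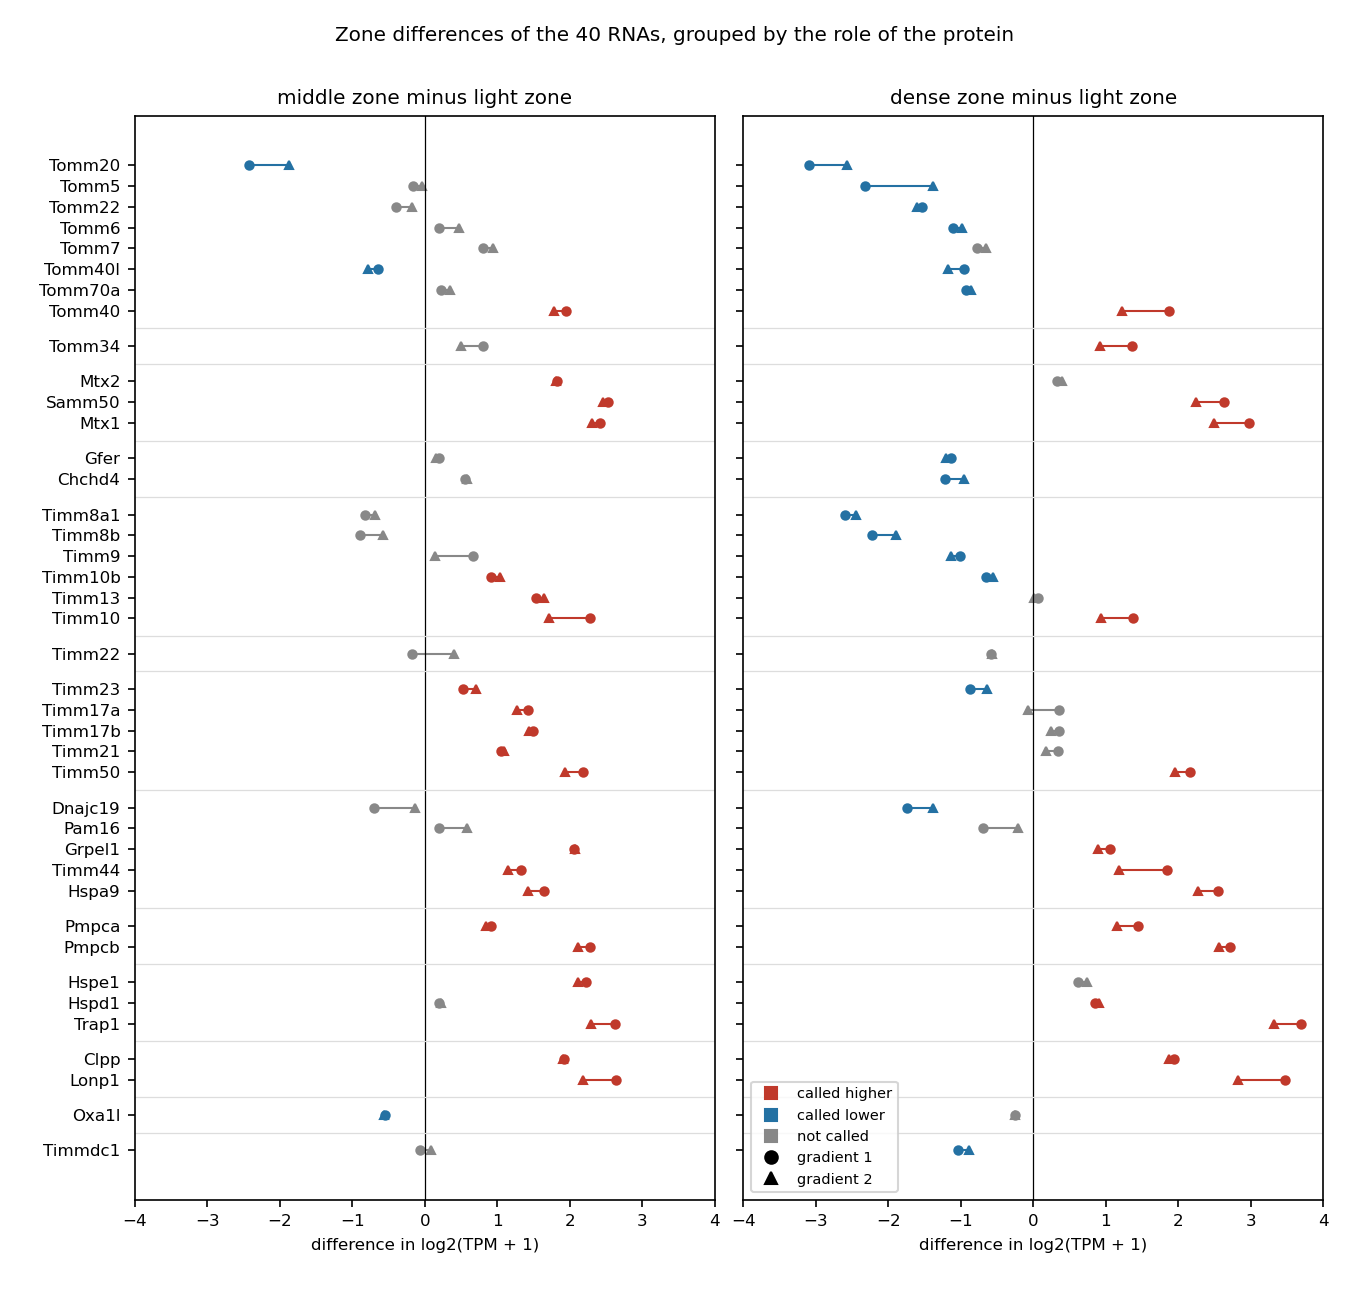
Difference in the zone mean of log2(TPM + 1) for each of the 40 RNAs, middle minus light zone on the left and dense minus light zone on the right, with circles for gradient 1, triangles for gradient 2 and a line between them. Genes are grouped by role and colored by call (red higher, blue lower, gray not called). The groups near the top (TOM subunits, small TIM chaperones) hold most of the blue points on the right, and the processing peptidase, matrix folding and protease groups hold none.

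The RNAs of the 8 TOM genes did not all sediment alike, and the receptors differed among themselves. The receptor Tomm22 (centers 9.96 and 9.87) lay near the small subunits Tomm5 (9.32 and 9.84) and Tomm6 (9.9 and 10.1). Receptors, channel and small subunits were not compared as classes. The receptor Tomm20 (chr8:126930667-126945844), which binds presequences, had the lightest profile. Its TPM ran from 30.1 to 50.7 in the 8 light-zone libraries (median 41.4), from 4.12 to 14.9 in the middle zone (median 8.29) and from 2.82 to 7.97 in the dense zone (median 4.39), so every light-zone library was above every other. The zone means were 38.5, 6.60 and 3.57 TPM in gradient 1 and 41.0, 10.6 and 6.13 in gradient 2. Tomm20 was lower in the middle than in the light zone by −2.14 ± 0.32 (log2 difference ± SE, adjusted p = 0.00394) and in the dense zone by −2.84 ± 0.32 (adjusted p = 0.00093), which is 7.15-fold on the TPM + 1 scale. Its peak, in fraction 5 of gradient 1 (47.4 TPM) and fraction 6 of gradient 2 (50.7 TPM), was 16.8 and 12.0 times its lowest value.

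Tomm40 (chr7:19701313-19715438), which encodes the channel, ran the other way. Its zone means were 25.5, 92.3 and 88.4 TPM in gradient 1 and 31.0, 104 and 71.1 in gradient 2. The middle zone was higher by 1.87 ± 0.20 (log2, adjusted p = 0.00187) and the dense zone by 1.55 ± 0.20 (adjusted p = 0.00156), and no light-zone library, the highest at 48.1 TPM, reached the lowest middle-zone library at 75.6 TPM. R between the profiles of Tomm40 and Tomm20 was −0.905 in gradient 1 and −0.697 in gradient 2. Its paralog Tomm40l had the opposite profile, with zone means of 50.2, 30.7 and 24.3 TPM and of 46.7, 25.9 and 19.4. Tomm40l was lower in the middle zone by −0.71 ± 0.19 (log2, adjusted p = 0.0279) and in the dense zone by −1.07 ± 0.19 (adjusted p = 0.00499). Exons of Tomm40l share 3304 bases with those of Nr1i3 on the opposite strand, and whether the quantification used strand is not given in the sources used here. Nr1i3, with a mean of 160 TPM against 31.0 for Tomm40l, peaked in fraction 21 in both gradients, and its R with Tomm40l was −0.615 and −0.763.

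Tomm70a, the receptor that docks cytosolic Hsp70 and Hsp90 with their precursors, peaked in fraction 9 of both gradients, at 133 and 149 TPM. Its zone means were 98.1, 115 and 51.3 TPM in gradient 1 and 95.1, 122 and 52.0 in gradient 2. The middle zone differed from the light zone by 0.29 ± 0.14 (log2, adjusted p = 0.151, and 0.0406 with the replicate block), and the dense zone was lower by −0.90 ± 0.14 (adjusted p = 0.00306). Tomm22, the central receptor, stood at −0.29 in the middle against the light zone (log2, adjusted p = 0.2, but −0.60 and adjusted p = 0.0369 after quantile normalization). Tomm22 was lower in the dense zone by −1.58 ± 0.16 (adjusted p = 0.000785). The small subunits Tomm5, Tomm6 and Tomm7, which hold the complex together, peaked in fractions 8 to 10 in both gradients, and their pairwise R lay between 0.866 and 0.972. Tomm5 had zone means of 65.0, 64.4 and 11.8 TPM and of 75.3, 78.3 and 27.2. It was lower in the dense than in the light zone by −1.85 ± 0.39 (log2, adjusted p = 0.00846), Tomm6 by −1.04 ± 0.21 (adjusted p = 0.00714), and Tomm7 stood at −0.71 ± 0.31 (adjusted p = 0.0893, and 0.00147 with the replicate block). Of the 8 TOM genes, 6 were called lower in the dense than in the light zone (all genes 39.0%) and only Tomm40 higher (all genes 22.4%). Exons of Tomm6 share 859 bases with a predicted gene on the same strand, so the reads of Tomm6 may be split.

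Samm50, Mtx1 and Mtx2 belong to the SAM complex and the metaxins, which insert beta-barrel proteins such as Tomm40 into the outer membrane. All 3 were higher in the middle than in the light zone, as were 23.7% of all genes. A further metaxin, Mtx3, was not among the genes chosen and is named after its value was seen. Mtx3 stood at −1.11 ± 0.46 in the middle against the light zone (log2, adjusted p = 0.0956). It was lower in the dense zone by −1.97 ± 0.46 (adjusted p = 0.0127) and peaked in fraction 5 of both gradients. Samm50 (chr15:84192241-84217267), the barrel-forming core, had zone means of 42.8, 216 and 232 TPM in gradient 1 and of 49.0, 244 and 209 in gradient 2. Its 8 light-zone libraries lay between 17.0 and 91.8 TPM, below all middle-zone (180 to 270) and all dense-zone libraries (183 to 239). The difference was 2.50 ± 0.17 (log2, adjusted p = 0.00115) for the middle and 2.44 ± 0.17 (adjusted p = 0.000335) for the dense zone. Mtx1 had zone means of 15.4, 73.1 and 107 TPM and of 14.2, 68.4 and 77.7, with differences of 2.37 ± 0.21 (log2, adjusted p = 0.00123) and 2.74 ± 0.21 (adjusted p = 0.000361). Its partner Mtx2 was higher in the middle zone by 1.82 ± 0.15 (adjusted p = 0.00121) but stood at 0.36 ± 0.15 in the dense zone (adjusted p = 0.0795, and 0.0153 with the replicate block). Mtx1 peaked in fraction 15 of both gradients and Mtx2 in fractions 9 and 10, and R between them was −0.074 and 0.164, whereas R between Samm50 and Mtx1 was 0.929 and 0.926.

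Chchd4, the oxidoreductase that traps cysteine-rich proteins in the intermembrane space, and Gfer, the sulfhydryl oxidase that recharges it, had like profiles (R of 0.908 and 0.890). Chchd4 had zone means of 29.5, 44.1 and 12.1 TPM in gradient 1 and of 22.1, 33.4 and 10.8 in gradient 2. The middle zone differed from the light zone by 0.57 ± 0.23 (log2, adjusted p = 0.0929, and 0.00811 with the replicate block), and the dense zone was lower by −1.08 ± 0.23 (adjusted p = 0.00902). Gfer was lower in the dense zone by −1.17 ± 0.36 (adjusted p = 0.0314), and both were lower in the dense than in the middle zone (for Gfer −1.35, adjusted p = 0.0405, but 0.0647 after quantile normalization).

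The small TIM chaperones carry hydrophobic precursors across the intermembrane space and are themselves substrates of Chchd4. They work as hexamers, Timm9 with Timm10 and Timm8 with Timm13, while Timm10b sits on TIM22. Their coding sequences share a feature that was not used to choose the genes: 2 in-frame stretches, each with 2 cysteine codons (TGT or TGC) 3 codons apart, with 11 to 16 codons between the stretches. Among the 40 genes exactly these 6 hold it (15%), and so do 71 of 11894 genes with a coding transcript (0.597%). Only the coding strand was searched. The stretches, from the GENCODE M21 transcripts (GRCm38), are shown because RNAs with this common layout and coding sequences of 249 to 300 bases sedimented differently. Capitals mark the cysteine codons.
Timm10, coding bases 85 to 99: TGCcaccggaagTGC
Timm10, coding bases 148 to 162: TGTctggaccgaTGT
Timm9, coding bases 82 to 96: TGCtttttggacTGT
Timm9, coding bases 142 to 156: TGTtcagaacatTGC
Timm13, coding bases 136 to 150: TGTttccggaagTGC
Timm13, coding bases 193 to 207: TGCatcgccatgTGC
Timm8a1, coding bases 127 to 141: TGCtgggagaagTGC
Timm8a1, coding bases 184 to 198: TGTtttgtgaacTGC
Timm8b, coding bases 106 to 120: TGTtgggataagTGT
Timm8b, coding bases 163 to 177: TGCctctctagcTGT
Timm10b, coding bases 73 to 87: TGTttccagcgcTGT
Timm10b, coding bases 133 to 147: TGCctgcacagcTGT

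Timm10 (chr2:84826997-84830213) was the densest of the 6, with a peak in fraction 12 of both gradients. Its TPM ran from 13.0 to 35.0 in the light zone (median 23.1), from 51.4 to 136 in the middle zone (median 95.5) and from 31.2 to 70.5 in the dense zone (median 53.6). The light and middle zones did not overlap. Timm10 was higher in the middle zone by 1.99 ± 0.24 (log2, adjusted p = 0.00218) and in the dense zone by 1.15 ± 0.24 (adjusted p = 0.00766), with zone means of 23.5, 113 and 59.4 TPM in gradient 1 and of 24.5, 80.6 and 46.1 in gradient 2. Its partner Timm9 peaked in fractions 10 and 9. Timm9 differed by 0.40 between the light and middle zones (adjusted p = 0.141, but 0.66 and adjusted p = 0.0288 with narrower zones). It was lower in the dense zone by −1.07 ± 0.19 (adjusted p = 0.005). R between Timm9 and Timm10 was 0.148 in gradient 1 and −0.155 in gradient 2.

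Timm8a1 (chrX:134537256-134541865) and Timm8b were the lightest. Timm8a1 had 1 high value in fraction 4 (134 TPM in gradient 1 and 153 in gradient 2), fell to 59.3 and 98.5 TPM in fraction 6, and reached its peak of 153 and 183 TPM in fraction 9, so both gradients showed 2 maxima. Its zone means were 99.9, 63.5 and 15.2 TPM and 120, 80.6 and 20.8. It was lower in the dense than in the light zone by −2.53 ± 0.25 (log2, adjusted p = 0.000684), and stood at −0.75 ± 0.25 in the middle zone (adjusted p = 0.052, and 0.00176 with the replicate block). Timm8b, with zone means of 201, 115 and 39.1 TPM and of 220, 154 and 54.6, was lower in the dense zone by −2.06 ± 0.26 (adjusted p = 0.00129) and stood at −0.73 ± 0.26 in the middle zone (adjusted p = 0.0591, and 0.00415 with the replicate block). Timm13, the partner of Timm8 proteins, peaked in fractions 9 and 10 at 289 and 291 TPM. It was higher in the middle zone by 1.59 ± 0.14 (adjusted p = 0.00128) and stood at 0.03 ± 0.14 in the dense against the light zone (adjusted p = 0.849). R between Timm13 and Timm8a1 was 0.614 and 0.541. Timm10b, whose exons share 376 bases with a predicted coding gene on the same strand and 277 with Arfip2 on the opposite strand (R with Arfip2 of 0.861 and 0.939), was higher in the middle zone by 0.98 ± 0.16 (adjusted p = 0.00573) and lower in the dense zone by −0.61 ± 0.16 (adjusted p = 0.0206, but 0.0611 after quantile normalization and 0.184 with narrower zones). All 6 were lower in the dense than in the middle zone (22.7% of all genes), from −0.84 for Timm10 (adjusted p = 0.0465, and 0.0509 without a filter on TPM, 0.0515 after rescaling and 0.107 after quantile normalization) to −1.77 for Timm8a1 (adjusted p = 0.00816). Timm8b also left the called set after quantile normalization (adjusted p = 0.0509).

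Timm22, the carrier channel, was the least abundant of the 40 (mean of 6.69 TPM) and was called in no comparison without the replicate block, with log2 differences of 0.11 ± 0.25 for the middle and −0.58 ± 0.25 for the dense against the light zone (adjusted p = 0.747 and 0.0938, the latter 0.0326 with the replicate block), and −0.69 ± 0.25 for the dense against the middle zone (adjusted p = 0.0982, and 0.0278 with the replicate block). The 5 genes of TIM23 were all higher in the middle than in the light zone, as were 23.7% of all genes. Timm23, a channel subunit, had zone means of 136, 202 and 71.8 TPM in gradient 1 and of 141, 231 and 87.6 in gradient 2. Timm23 was higher in the middle zone by 0.62 ± 0.18 (log2, adjusted p = 0.0318, but 0.0627 after rescaling without the 50 most abundant genes and 0.232 after quantile normalization) and lower in the dense zone by −0.75 ± 0.18 (adjusted p = 0.0122). The paralogs Timm17a and Timm17b, the other channel subunits, had profiles close to each other (R of 0.936 and 0.951) with peaks in fractions 11 and 12, and were higher in the middle zone by 1.35 ± 0.18 (adjusted p = 0.00306) and 1.47 ± 0.17 (adjusted p = 0.00217). R between Timm17a and Timm23 was 0.424 and 0.590. Timm50, the receptor that hands precursors from TOM to TIM23, was the only 1 of the 5 called higher in the dense zone as well, by 2.06 ± 0.17 in the middle (adjusted p = 0.00121) and 2.06 ± 0.17 in the dense zone (adjusted p = 0.000426). With the replicate block Timm17b was called there too (0.30, adjusted p = 0.0305). Timm21 was higher in the middle zone by 1.07 ± 0.27 (adjusted p = 0.021).

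Centers of the import motor RNAs ran from that of Dnajc19 (9.39 and 9.8) to that of Hspa9 (14.8 and 14.7). Hspa9, mitochondrial Hsp70 and the ATPase of the motor, was the most abundant of the 40 (mean of 650 TPM). It ran from 152 to 231 TPM in the light zone (median 188), from 437 to 689 in the middle zone (median 541) and from 880 to 1203 in the dense zone (median 995). The 3 zones did not overlap. Hspa9 was higher in the middle zone by 1.54 ± 0.16 (log2, adjusted p = 0.00163), in the dense zone by 2.41 ± 0.16 (adjusted p = 0.000313) and in the dense against the middle zone by 0.87 ± 0.16 (adjusted p = 0.0131). Timm44, which tethers Hspa9 to the channel, had zone means of 37.9, 86.8 and 124 TPM in gradient 1 and of 38.6, 84.0 and 86.6 in gradient 2. Timm44 was higher in the middle zone by 1.24 ± 0.21 (adjusted p = 0.00616) and in the dense zone by 1.52 ± 0.21 (adjusted p = 0.00192).

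Grpel1, the nucleotide exchange factor of Hspa9, peaked in fraction 12 in both gradients at 197 and 215 TPM. Grpel1 was higher in the middle zone by 2.07 ± 0.15 (log2, adjusted p = 0.00116) and in the dense zone by 0.97 ± 0.15 (adjusted p = 0.00252), and lower in the dense than in the middle zone by −1.10 ± 0.15 (adjusted p = 0.00755), the opposite sign to Hspa9. R between Grpel1 and Hspa9 was 0.242 and 0.120. Dnajc19, the J protein that stimulates Hspa9, and Pam16, its J-like partner, were lighter, and R between them was 0.842 and 0.801. Dnajc19 had zone means of 109, 72.4 and 30.2 TPM and of 149, 141 and 52.8, and was lower in the dense than in the light zone by −1.57 ± 0.43 (adjusted p = 0.0227). Pam16 was called lower in the dense than in the middle zone (−0.84 ± 0.20, adjusted p = 0.0273, but 0.0549 with narrower zones and 0.135 after quantile normalization), and stood at −0.45 in the dense against the light zone (adjusted p = 0.0893, and 0.034 with the replicate block).

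The 2 subunits of the processing peptidase, which cuts presequences in the matrix, were both higher away from the light zone and had nearly the same profile (R of 0.962 and 0.955). Pmpcb, the catalytic subunit, had zone means of 51.6, 245 and 327 TPM in gradient 1 and of 51.5, 222 and 300 in gradient 2. Its light-zone libraries lay between 32.2 and 76.3 TPM and its dense-zone libraries between 274 and 357. The difference was 2.20 ± 0.15 (log2, adjusted p = 0.00115) for the middle and 2.64 ± 0.15 (adjusted p = 0.000307) for the dense zone. Pmpca, the substrate-binding subunit, was higher by 0.88 ± 0.15 (adjusted p = 0.00667) and 1.31 ± 0.15 (adjusted p = 0.00113). Exons of Pmpca share 874 bases with Inpp5e on the opposite strand, whose mean was 5.53 TPM against 74.0 for Pmpca.

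Matrix Hsp60 (Hspd1) and its cochaperonin Hsp10 (Hspe1) form 1 folding chamber, and their genes lie head to head on chromosome 1 (Hspd1 at chr1:55077835-55088243 on the minus strand, Hspe1 at chr1:55088132-55091307 on the plus strand), with 112 exon bases in common. The RNAs did not sediment alike, with R of −0.176 in gradient 1 and −0.137 in gradient 2. Hspe1 rose to a peak in fraction 12 of both gradients, at 896 and 1206 TPM, from 88.4 and 194 TPM in fraction 4. Its libraries ran from 88.4 to 314 TPM in the light zone (median 202), from 706 to 1206 in the middle zone (median 860) and from 213 to 476 in the dense zone (median 329). Every middle-zone library was above all others. Hspe1 was higher in the middle zone by 2.17 ± 0.27 (log2, adjusted p = 0.00249), lower in the dense than in the middle zone by −1.49 ± 0.27 (adjusted p = 0.0135), and stood at 0.68 ± 0.27 in the dense against the light zone (adjusted p = 0.0718, and 0.00248 with the replicate block).

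Hspd1 had no peak in the middle. It ran from 346 to 582 TPM in the light zone (median 398), from 363 to 662 in the middle zone (median 508) and from 584 to 1083 in the dense zone (median 781), so the light and middle zones overlapped. Within each mouse the dense zone lay above the light zone of Hspd1, from 584 TPM against at most 400 in gradient 1 and from 826 TPM against at most 582 in gradient 2. Its middle zone differed from the light zone by 0.21 ± 0.26 (log2, adjusted p = 0.544), and this sign turned after quantile normalization (−0.21). Its dense zone was higher than the light zone by 0.88 ± 0.26 (adjusted p = 0.0295, but 0.088 with narrower zones and 0.144 after quantile normalization). In gradient 2 the highest value of Hspd1 was in fraction 22, at 1323 TPM, outside the 3 zones. The annotation names 6 pseudogenes of Hspe1 and 5 of Hspd1, so both levels are uncertain as far as reads are shared. Trap1, the Hsp90 of the matrix, had zone means of 51.6, 313 and 638 TPM in gradient 1 and of 52.7, 256 and 515 in gradient 2. Trap1 was higher in the middle zone by 2.46 ± 0.19 (adjusted p = 0.00121) and in the dense zone by 3.51 ± 0.19 (adjusted p = 0.000307), an 11.4-fold difference on the TPM + 1 scale and the largest among the 40. Trap1 and Hspa9 were the 2 RNAs of the 40 called higher in the dense than in the middle zone with the fit and filter first described, the alternatives calling up to 8 (1.04 ± 0.19 for Trap1, adjusted p = 0.0131), and R between them was 0.986 and 0.994.

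**Figure D3:**
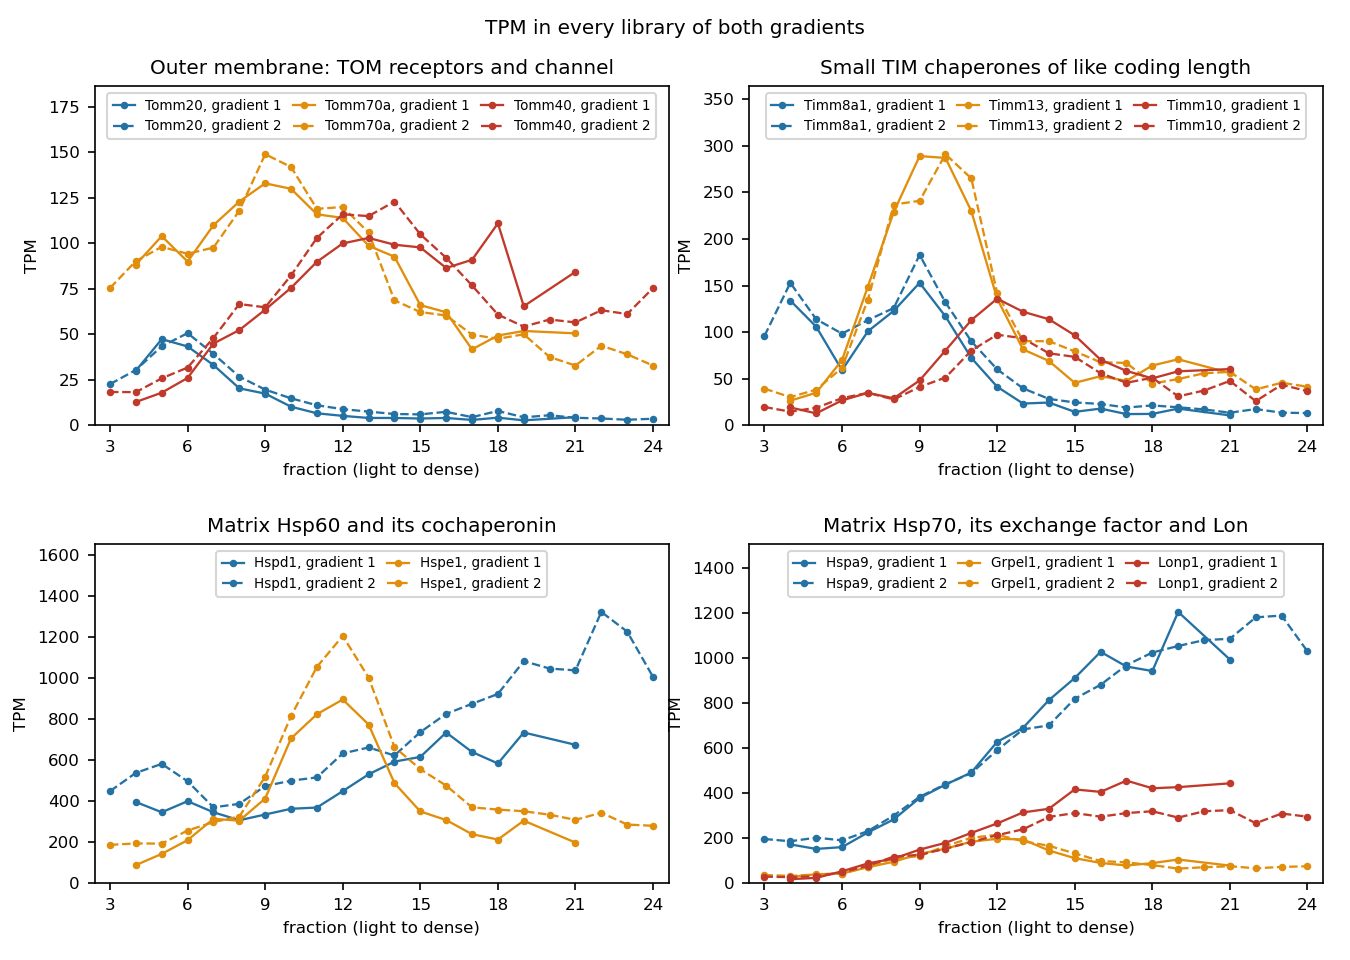
TPM against fraction number in every library of gradient 1 (solid) and gradient 2 (dashed) for 4 sets of RNAs. Tomm20 peaks in fractions 5 and 6 where Tomm40 is low, Timm10 peaks in fraction 12, denser than Timm8a1 and Timm13 (fractions 9 and 10), Hspe1 peaks in fraction 12 where Hspd1 does not, and Hspa9 and Lonp1 climb toward the dense end while Grpel1 peaks in fraction 12.

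Both matrix proteases were higher in the middle and dense zones than in the light zone. Lonp1 (chr17:56614297-56626887), the Lon protease, ran from 17.9 to 87.8 TPM in the light zone (median 39.5), from 153 to 314 in the middle zone (median 218) and from 291 to 455 in the dense zone (median 362). Within each mouse the zones did not overlap, with middle-zone libraries of 179 to 314 TPM and dense-zone libraries of 405 to 455 TPM in gradient 1, and of 153 to 239 and 291 to 319 TPM for Lonp1 in gradient 2. Lonp1 was higher in the middle zone by 2.41 ± 0.22 (log2, adjusted p = 0.00133) and in the dense zone by 3.15 ± 0.22 (adjusted p = 0.000335), and stood at 0.73 ± 0.22 in the dense against the middle zone (adjusted p = 0.0584, and 0.0183 with the replicate block). Clpp, the proteolytic barrel that works with ClpX, was higher by 1.91 ± 0.24 in the middle (adjusted p = 0.00265) and by 1.91 ± 0.24 in the dense zone (adjusted p = 0.00144), and peaked in fractions 15 and 14.

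Oxa1l, the insertase of the inner membrane, also had its peak in the light zone. It reached 76.7 TPM in fraction 6 of gradient 1 and 65.9 in fraction 6 of gradient 2, and settled at 32.7 to 59.2 TPM in all shared fractions from 9 to 21. It was lower in the middle than in the light zone by −0.55 ± 0.16 (log2, adjusted p = 0.0337) and stood at −0.25 ± 0.16 in the dense zone (adjusted p = 0.221). R between Oxa1l and Tomm20 was 0.550 and 0.645. Exons of Oxa1l share 232 bases with Slc7a7 on the opposite strand, whose mean was 2.42 TPM. For 2 of the 40 the symbol names another role. Timmdc1, an assembly factor of respiratory complex I, peaked in fraction 8 of both gradients and was lower in the dense zone by −0.97 ± 0.18 (adjusted p = 0.0054). Tomm34, a cytosolic cochaperone, peaked in fraction 15 of both and was higher in the dense zone by 1.14 ± 0.35 (adjusted p = 0.0316).

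The order of the RNAs went with their coding length. Spearman's rho between coding length and center of sedimentation was 0.743 over the 40 genes in gradient 1 and 0.718 in gradient 2 (Pearson's r with log2 length 0.736 and 0.718), where it was 0.126 and 0.117 over 10745 genes with a coding transcript. These are correlations across genes of the same libraries, with no test, and genes are not independent replicates. With the length of the 3′ untranslated region rho was −0.298 and −0.311 for the 40 and −0.279 and −0.321 for all genes. For the 40 RNAs rho was thus farther from 0 with coding length than with the untranslated region, and for all genes it was nearer to 0. With the length of the whole transcript rho was 0.229 and 0.194 for the 40 and −0.132 and −0.171 for all genes. Coding length also differed between the roles, and the part of role was not tested. The 9 RNAs of up to 300 coding bases had median centers of 10.4 and 10.3, equal to those of 222 genes of that length. The 6 with 1500 to 3000 bases had medians of 14.3 and 14.1, where 3322 genes of that length had 11.7 and 11.5.

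Set against genes within 10% of their own coding length, 22 of the 40 RNAs were denser in both gradients, 15 were lighter in both and 3 changed sides. Those over 2 fractions denser in both gradients numbered 9, with Trap1 (3.56 and 3.81 fractions), Lonp1 (3.20 and 3.01) and Hspa9 (2.93 and 3.13) among them. The only short RNA of these 9 was Timm10, with 270 coding bases and a center 2.63 and 2.26 fractions denser than 98 genes of like length. Timm13, with 285 bases, was within 0.0435 and 0.104 fractions of its neighbours. Tomm20 (−3.07 and −2.62 fractions) and Timm8a1 (−2.27 and −2.14) were the 2 RNAs more than 2 fractions lighter in both. The share of all genes that lie as far from genes of like length was not computed, so whether these counts are unusual was not tested. Centers of all genes were broad, with quartiles of 9.64 and 12.9 in gradient 1 and of 9.99 and 12.7 in gradient 2. Tomm70a, with 1833 coding bases, lay 0.801 and 0.725 fractions on the light side (differences of −0.801 and −0.725), unlike the other 5 RNAs of 1500 to 3000 bases.

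**Figure D4:**
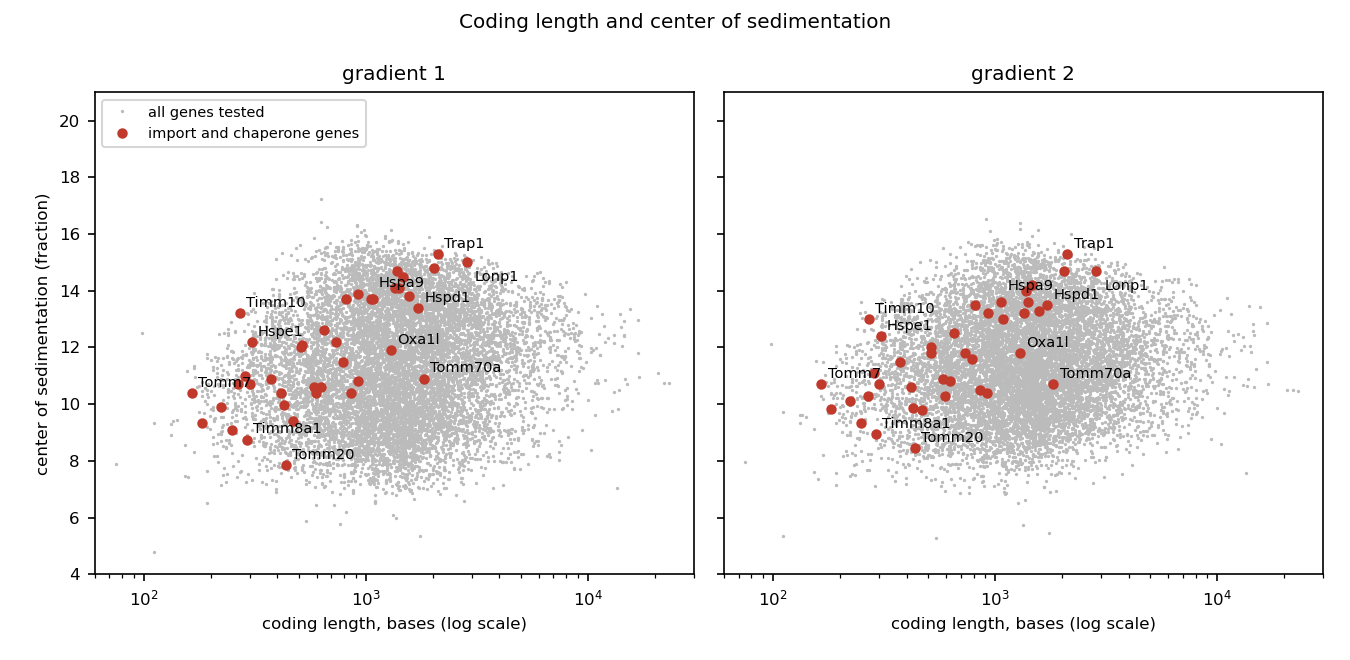
Center of sedimentation (fraction number) against coding length (bases, log scale) for gradient 1 on the left and gradient 2 on the right, with the 40 RNAs in red and the other genes tested in gray. The red points climb from Tomm7 (165 bases) to Lonp1 (2847 bases, centers 15.0 and 14.7), with Tomm20 and Tomm70a below and Timm10 above the others of like length.

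Profiles of the 40 were therefore not alike as a set. R over the 780 pairs had a median of 0.189 in gradient 1 and 0.274 in gradient 2, with 331 and 313 pairs below 0, and ran from −0.949 to 0.994 in gradient 1. On the log2 scale the median over pairs, averaged over both gradients, was 0.365, against 0.231 on the TPM scale.

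Other genes of the pathway and its surroundings were read from lists, with all members of each list counted. Of 16 further import and processing genes, 9 were higher in the middle than in the light zone (56.2%, against 23.7% of all genes). Under the replicate block 10 were higher (all genes 37.5%) and 4 lower (all genes 34.4%). In the dense against the light zone 7 of the 16 were higher (43.8%, against 22.4% of all genes) and 5 lower (31.2%, against 39.0%). The 4 with the largest rises to the middle zone were Romo1 (2.78 on the log2 scale, adjusted p = 0.00115), which acts with TIM23 and the inner membrane, the intermediate peptidase Mipep (2.22, adjusted p = 0.00115), Letm1 (1.88, adjusted p = 0.00121) and the presequence protease Pitrm1 (1.64, adjusted p = 0.00163). Grpel2, the paralog of Grpel1, stood at −0.94 in the middle zone (adjusted p = 0.11) and was lower in the dense zone by −2.11 (adjusted p = 0.00653). Grpel2 and Immp1l, an inner membrane peptidase lower in the dense zone by −2.56 (adjusted p = 0.000458), are named after their values were seen. Of 8 inner membrane proteases and prohibitins, 7 were higher in the middle (87.5%, against 23.7% of all genes) and 5 in the dense zone (62.5%, against 22.4%), and all 8 in both with the replicate block (all genes 37.5% and 30.8%). Of 6 cytosolic chaperones that escort precursors, 3 were higher in the middle than in the light zone (50%, against 23.7% of all genes). In the dense against the light zone 4 of these chaperones were higher (66.7%, against 22.4%). With the replicate block 4 and 5 were higher (all genes 37.5% and 30.8%), and 1 was lower in the middle zone (all genes 34.4%). Hspa8, named after its value was seen, stood at −1.56 in the middle zone (log2, adjusted p = 0.057).

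The mitochondrial ribosomal proteins, also imported, were mostly higher in the middle zone too, with 70 of 78 RNAs higher than in the light zone (89.7%, against 23.7% of all genes) and 49 of 78 lower in the dense than in the middle zone (62.8%, against 22.7%). The proteasome subunits, which are not imported, had all 37 tested RNAs higher in the middle zone (23.7% of all genes). In the dense against the middle zone 13 of them were higher (35.1%, against 4.85% of all genes) and 1, Psmd8, named after its value was seen, was lower (2.7%, against 22.7%). With the replicate block 20 were higher (all genes 14.3%) and 3 lower (all genes 39.5%). The 37 were taken by symbol (Psma, Psmb, Psmc or Psmd and a number), which admits assembly factors such as Psmd9 and Psmd10. The median difference between the dense and middle zones was −0.94 for mitochondrial ribosomal proteins, 0.51 for the proteasome and −0.91 for the 40 import and chaperone RNAs, on the log2 scale. Of 15 secreted hepatocyte proteins, 11 were lower in the middle than in the light zone (73.3%, against 23.5% of all genes), and 12 lower and 1 higher with the replicate block (all genes 34.4% and 37.5%). Alb stood at −2.68 (adjusted p = 0.00406). Comparisons with the light zone share its libraries, and the middle-against-light and dense-against-middle comparisons share the middle-zone libraries.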

How the data were processed

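RNA of 39 gradient fractions from the livers of 2 wild-type mice was measured. The authors used stranded libraries depleted of ribosomal RNA, pseudo-aligned reads to mm10 RefSeq transcripts with Kallisto (per the submitters' notes, after bcl2fastq 2.16.0.10), and deposited TPM per gene symbol, 1 table per gradient. The version of Kallisto, its use of strand and the summing of transcripts to genes are not given in the sources used here. The tables held 13982 and 13634 genes, and 0 value columns were without a sample. TPM holds no counts, so no count model was used.

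Zone means of log2(TPM + 1) were compared with limma 3.58.1 (eBayes with trend, two-sided) in R 4.3.3, over genes whose TPM averaged 1 or more in all libraries. P-values were adjusted by the Benjamini-Hochberg method with a threshold of 0.05. The fit was also run on simulated data. Their noise was independent between the zones of a gradient, so that run cannot show how the fit does with the pairing described next. Each gradient is 1 animal and so pairs its zones, and deviations of the gradients from the zone means correlated (r = 0.665, 0.541 and 0.800 across 11652 genes). A fit with the gradient as a replicate block was an alternative, as were another pseudocount (0.1), no filter on TPM, a minimum mean TPM of 10, quantile normalization, rescaling without the 50 most abundant genes, narrower zones (fractions 5 to 6, 11 to 12 and 17 to 18) and each gradient alone. Coding lengths, overlaps and coordinates come from GENCODE M21 (GRCm38, the assembly of mm10). All 40 genes matched. Python 3.11.15, NumPy 2.4.6, pandas 2.3.3 and SciPy 1.17.1 were used.

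The genes, their roles and the lists were chosen with earlier results of these data known. Every one of the 40 could be named. Full values went to 14 representatives of the roles and to the 4 largest rises and 4 largest falls called from the light to the middle and to the dense zone with the same sign in both gradients, and up to 4 genes of a list to its largest called changes. Mitochondrially encoded RNAs and protein were not analysed here.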

Additional observations from a re-analysis of the deposited data

How the results depend on the processing

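Of the 77 differences called for the 40 genes, 10 lost significance in at least 1 of the 7 alternative fits. These were Timm23 from the light to the middle zone, Hspd1 and Timm10b from the light to the dense zone, and Gfer, Pam16, Timm10, Timm8b, Timmdc1, Tomm5 and Tomm7 from the middle to the dense zone. All 10 did so after quantile normalization, and no called difference changed sign in any of them or in either gradient alone. From the light to the middle zone, RNAs called lower went from 3 to 6 after quantile normalization and to 5 with the gradient as a replicate block. Those of all genes went from 2740 to 2805 and 4014. The median difference of 0.88 went to 0.71 after quantile normalization, 0.79 after rescaling without the 50 most abundant genes and 0.95 with narrower zones. From the middle to the dense zone, RNAs called higher went from 2 to 5 after quantile normalization, 5 after rescaling and 8 with the replicate block, while those of all genes went from 565 to 1214, 813 and 1664, and the median of −0.91 went to −0.97 with a minimum mean TPM of 10, −0.59 after quantile normalization, −0.81 after rescaling and −1.04 with narrower zones. From the light to the dense zone the median of 0.09 went to 0.18 after quantile normalization, 0.14 with a minimum mean TPM of 10 and 0.13 with narrower zones. The replicate block left the other counts over the 40 genes within 1.5 times, with calls of single genes changed where stated. Each gradient alone gave medians of 0.86 to 0.89 for the middle against the light zone, −0.03 to 0.19 for the dense against the light zone, where the sign turned without gradient 1, and −0.98 to −0.93 for the dense against the middle zone. A single gradient allows no test. Of the 43 differences not called, 6 turned sign in 10 of these fits: from the light to the middle zone Hspd1 (0.21, and −0.21 after quantile normalization), Timmdc1 (0.01, and −0.16 after quantile normalization or −0.09 after rescaling) and Tomm5 (−0.10, and 0.03 with narrower zones), and from the middle to the dense zone Clpp (−0.00, and 0.20, 0.10 and 0.04 after quantile normalization, rescaling and with narrower zones), Samm50 (−0.06, and 0.03 after quantile normalization or 0.05 after rescaling) and Timm50 (0.00, and −0.03 with narrower zones). The 2 gradients had opposite signs in 6 of the 43, in Timm22 and Timmdc1 from the light to the middle zone, Timm17a from the light to the dense zone, and Clpp, Samm50 and Timm50 from the middle to the dense zone. Over all genes, the share of calls that were higher went from 36.5% to 50.9% (dense against light) and from 17.6% to 42.9% (dense against middle) after quantile normalization, and the causes were not tested. The median center of 11.7 went to 12 on the log2 scale, 11.9 with a minimum mean TPM of 10 and 12.6 with all 22 fractions of gradient 2, and was 11.7 in either gradient. The median R over pairs, 0.231, went to 0.365 on the log2 scale and 0.319 with 22 fractions, and lay between 0.189 and 0.274 in single gradients. Depth cannot be read from TPM and 2 mice limit the precision of each difference.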

Other observations

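Gradient 2 holds fractions 3, 20 and 22 to 24, which gradient 1 lacks and which enter no comparison between zones. Hspd1 was highest there in fraction 22 (1323 TPM, against 1083 in fraction 19), Hspa9 in fraction 23 (1187 TPM, against 1084 in fraction 21) and Trap1 in fraction 23 (654 TPM, against 635 in fraction 21). For the other RNAs the highest TPM of gradient 2 lay in a fraction that both gradients have. Hspe1, whose peak of 1206 TPM was in fraction 12, had 280 TPM in fraction 24. Tomm20 had 22.7 TPM in fraction 3, below its 30.5 in fraction 4, and 3.70 TPM in fraction 24. There is 1 library for each of these fractions, so no replicate check exists.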
